A study of Mus musculus with 9 samples.

Results

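The cortex of mouse embryos homozygous for a Cyfip2 mutation (KO, 3 libraries) was compared with that of heterozygous embryos (Het, 3 libraries). These are 6 of the 9 libraries of the series, and the genotype label alone chose them. All embryos were C57BL/6J mice at embryonic day 18.5, and cortical RNA was measured by bulk RNA sequencing. The remaining 3 libraries are wild type (WT): they set levels beside the mutants and add to the estimate of spread. The labels call the homozygous mice knockouts but describe neither the allele nor the embryos' sex. They do not state whether each library is a separate embryo, so the p-values rest on the spread between libraries, which may be technical. Neither mutant genotype is cell type specific as far as the labels say, and tissue from more than 1 cell type entered each library. In bulk tissue, fewer cells of a type and less RNA per cell cannot be told apart.

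Cyfip2 encodes one of a pair of closely related subunits, with Cyfip1, of the WAVE regulatory complex. Active Rac binds this subunit and frees the WAVE protein to switch on the Arp2/3 complex, which nucleates branched actin filaments in growth cones, leading processes and dendritic spines. Both CYFIP proteins also bind the fragile X protein FMRP and, through the cap-binding factor eIF4E, can hold back translation. Cyfip2 is the form made mainly by neurons in the brain.

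Before the genotypes are compared, the libraries themselves need describing, because Het replicate 3 stood apart. Depth was about 29.5 M to 40.8 M reads in the 6 libraries (M, mega), estimated from the smallest step between low values. Cortical identity was clear in all 6: Emx1, a transcription factor of the dorsal telencephalon, had values of 1022 to 1342. Values throughout are gene counts divided by a size factor for each library. Col1a1, a fibrillar collagen of the meninges, was at 87.2 in Het replicate 3 and at 2385 to 5328 in the other 5 libraries. Cdhr1, an olfactory bulb mitral cell cadherin, was at 3436 in Het replicate 1 and at 3237 and 2138 in KO replicates 1 and 2, against 21.8 to 53.1 in the other 3. The Y-linked gene Ddx3y was at 0 in the same 3 libraries and at 1404 to 1492 in the others, so olfactory bulb RNA and sex cannot be told apart among the 6. Both differ in number between the genotypes, with 1 such Het library and 2 such KO libraries.

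The comparison began with the gene that defines the genotypes. Cyfip2 transcript was still abundant in KO: its values were 8969, 9779 and 9882 in Het (mean 9543 ± 500, SD, n = 3) and 7900, 7522 and 8255 in KO (7893 ± 366). Each KO library was below each Het library, and KO held 82.7% of the Het mean. WT held 10169, 10345 and 11174, above every mutant library. The log2 difference between KO and Het was -0.27 ± 0.06 (limma standard error, SE), with an adjusted p of 0.942 in limma and an unadjusted p of 0.00174. An exact two-sided permutation test gave p = 0.10, the smallest that 3 libraries against 3 allow. Because the values count reads over the whole gene, they cannot say whether the transcript that remains in KO encodes a protein.

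Fndc9, which encodes a small membrane protein with a fibronectin type III domain, lies inside Cyfip2 and had the larger difference at this locus. On GRCm38, Cyfip2 spans chr11:46193850-46312859 on the minus strand. Fndc9 spans chr11:46235531-46239872 on the plus strand, within a Cyfip2 intron flanked by an exon ending at 46224205 and one starting at 46240004. The windows of 250 bases upstream of both RefSeq starts, 76801 bases apart, are shown because the mutant label names Cyfip2 while the gene nested in its intron differed more. They are from RefSeq on GRCm38.p6, written 5′ to 3′ on the gene's own strand, with every CG dinucleotide in capitals: chr11:46312359-46312608 for Cyfip2 and chr11:46235307-46235556 for Fndc9. These starts (46312358 and 46235557) lie inside the GENCODE spans above, so the Cyfip2 window falls within the longest annotated span of that gene and the Fndc9 window overlaps the start of its own.
Cyfip2: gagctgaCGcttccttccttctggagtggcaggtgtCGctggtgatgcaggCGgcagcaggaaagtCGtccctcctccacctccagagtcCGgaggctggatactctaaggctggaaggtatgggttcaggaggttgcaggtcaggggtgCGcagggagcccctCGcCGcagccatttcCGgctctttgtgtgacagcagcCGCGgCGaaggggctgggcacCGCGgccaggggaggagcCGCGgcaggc
Fndc9: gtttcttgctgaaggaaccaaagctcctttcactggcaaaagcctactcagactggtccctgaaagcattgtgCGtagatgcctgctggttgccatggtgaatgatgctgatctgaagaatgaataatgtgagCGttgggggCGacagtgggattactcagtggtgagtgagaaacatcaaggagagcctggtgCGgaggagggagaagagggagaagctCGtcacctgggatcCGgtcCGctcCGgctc
The Cyfip2 window holds 16 CG dinucleotides (CG reads the same on both strands) and the Fndc9 window 8, against a median of 6 over 32851 such windows. Of all windows, 25.4% hold at least as many as Cyfip2 and 43.0% at least as many as Fndc9. The letters TATAAA, searched on either strand, are in neither window and in 12.4% of all windows.

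Fndc9 values were 17.5, 27.4 and 18.3 in Het and 2.46, 4.50 and 0.914 in KO. Each KO library was below each Het library, and WT was above both, at 29.4, 64.6 and 34.1. KO held 12.5% of the Het mean, and the log2(value + 1) difference was -2.71 ± 0.48 (SE), with an adjusted p of 0.942 in limma. These are few reads, since 1 read was worth 0.922 to 1.22 units in the KO libraries. The kit keeps strand, but the sources used here do not state whether counting used it, so reads from Cyfip2 introns and from Fndc9 may not be fully separated. Of 14 tested genes from a list of 20 around Cyfip2, 6 were higher in KO and 8 lower, with a median log2 difference of -0.06. Sox30, a testis transcription factor gene among them, was at 5.15, 6.41 and 14.1 in Het and 16.1, 16.7 and 14.9 in KO.

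**Figure D1:**
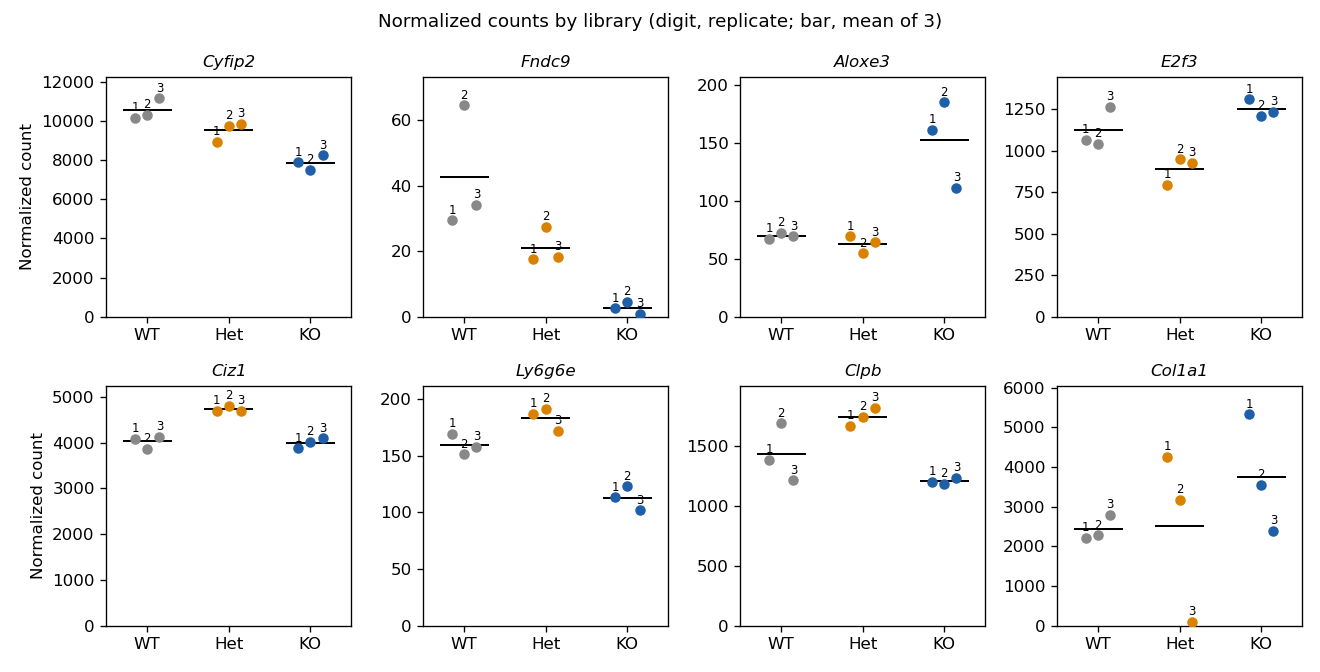
Normalized counts (gene counts divided by size factors, linear axes from 0) of 8 genes in WT, Het and KO; each point is 1 library with its replicate number, and bars are means of 3. For Cyfip2 the 3 KO points lie between 7522 and 8255, below the 3 Het points, and for Aloxe3 the KO points lie above the Het points.

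Across the transcriptome, no gene passed an adjusted p of 0.05 in limma among 15069 tested (0% called, smallest adjusted p 0.942). At an unadjusted p under 0.05, 541 genes were called (3.59%), 214 higher in KO (1.42%) and 327 lower (2.17%). The 3 KO libraries lay wholly above the 3 Het libraries for 474 genes (3.15%) and wholly below for 705 (4.68%), together 1179 (7.82%). The median log2 difference over all genes was 0.00, and 50.4% of genes were higher in KO by any amount. Deviations from the group means correlated at 0.45, 0.10 and 0.47 between Het and KO libraries of the same number. The value for number 2 was below that of Het replicate 2 with KO replicate 1 (0.15), so number 2 did not pair. With the number as a block the unadjusted counts were 465 higher and 519 lower over the 9 libraries, and 713 and 585 over the 6 mutant libraries alone, with no gene at an adjusted p under 0.05 in either. The split moved with scaling, to 167 higher and 349 lower after quantile normalization and 276 and 248 after upper-quartile rescaling.

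The differences were small where they were steady and large mainly where 1 library set them. Of the 541 genes, 395 differed by less than 0.5 on the log2 scale. The groups did not overlap for 429 of the 541, against 7.82% of all genes. Picking by p thus favours separate groups, also for list members named below by their p. Differences of at least 1 were far more often upward, at 296 genes against 49 downward. Of those 296, 46 still reached 1 without Het replicate 3 and 30 were then lower in KO; of the 49, 39 still reached 1. Het replicate 3 and Het replicate 1 differed by at least 1 at 1598 genes, whereas Het replicate 1 and KO replicate 1 did so at 371. For 304 of the 541 genes the WT mean was nearer to KO than to Het (56.2%, against 50.8% of all genes).

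**Figure D2:**
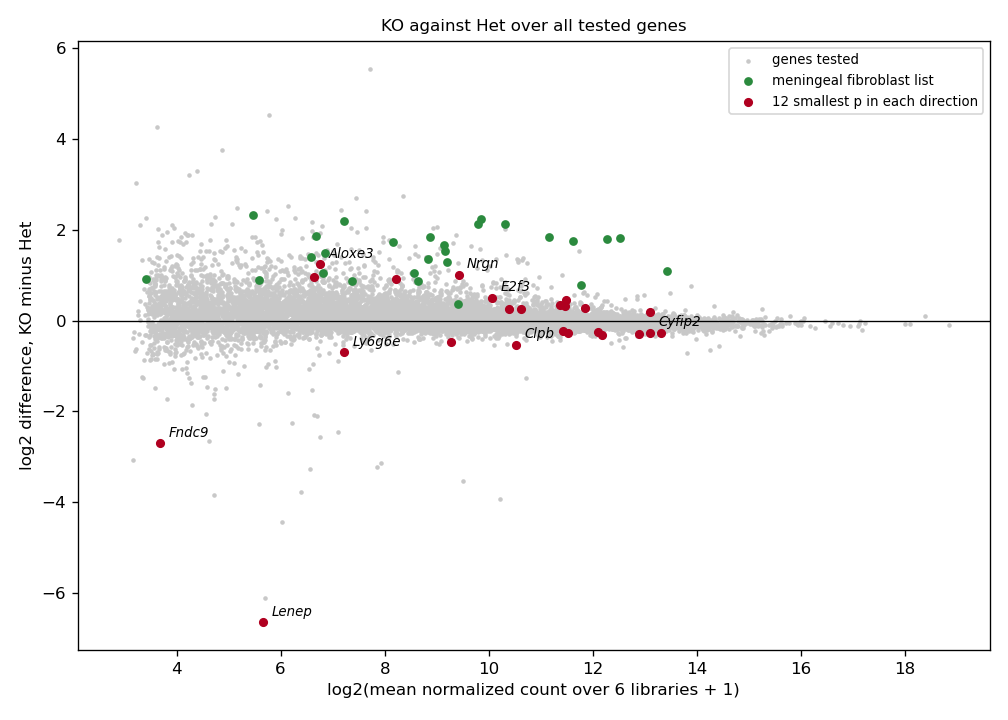
Log2 difference between KO and Het (vertical axis) against the log2 of the mean normalized count over the 6 libraries plus 1 (horizontal axis) for the 15069 genes tested; green points are meningeal fibroblast markers and red points the 12 genes of smallest p in each direction. Most points lie near 0, and more points exceed 1 (296) than lie below -1 (49).

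The genes with the smallest p-values and higher values in KO came from unrelated functions. Aloxe3, an epidermal-type lipoxygenase family member, was at 69.4, 54.5 and 64.1 in Het and 161, 185 and 111 in KO, a log2 difference of 1.24 ± 0.22 (SE). E2f3, a transcription factor that drives entry into S phase, was at 792, 946 and 926 in Het and 1309, 1209 and 1232 in KO, a difference of 0.50 ± 0.10. In WT, Aloxe3 lay at 67.1 to 72.0, near Het, while E2f3 lay at 1040 to 1265, near KO. Nrgn, a postsynaptic calmodulin-binding protein, was at 376, 425 and 524 in Het and 707, 1350 and 726 in KO. Its difference was 1.01 ± 0.26, and 0.71 without KO replicate 2, the highest library. Cmklr1, the chemerin receptor, differed by 0.97 ± 0.22, from 58.5 to 70.3 in Het and 122 to 146 in KO. Fam19a1, a secreted neuronal chemokine-like protein, differed by 0.93 ± 0.24 and Dact1, an antagonist of Wnt signalling through Dishevelled, by 0.35 ± 0.07. The remaining 6 were Pcdhgc4, a gamma-protocadherin (0.45), Txnip, a thioredoxin inhibitor (0.32), Ndfip1, an adaptor of Nedd4 ubiquitin ligases (0.27), Arl4a, a small GTPase (0.27), Snx30, a sorting nexin (0.26), and Eid1, an inhibitor of EP300 (0.18). Gamma-protocadherins share their last exons, so reads of Pcdhgc4 may belong to other members. None of the 12 overlapped between genotypes, which picking by p favours (3.15% of all genes lay wholly above). The adjusted p of each was 0.942 in limma.

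The lower genes with the smallest p-values were, beside Fndc9 and Cyfip2, mostly abundant transcripts with differences under 0.6. Clpb, a mitochondrial disaggregase, was at 1669, 1746 and 1820 in Het and 1198, 1184 and 1235 in KO, a log2 difference of -0.53 ± 0.11 (SE). Ly6g6e, a GPI-anchored Ly6 family member, was at 187, 191 and 172 in Het and 113, 123 and 102 in KO, a difference of -0.70 ± 0.14. Rbm38, an RNA-binding p53 target, was at 689, 679 and 792 in Het and 513, 470 and 564 in KO, a difference of -0.48 ± 0.10. Among these, WT lay with KO for Rbm38 (534 to 594), between the genotypes for Ly6g6e (151 to 169) and across both for Clpb (1214 to 1690). Ciz1, a nuclear matrix protein that binds p21, was at 4699, 4797 and 4693 in Het and 3875, 4018 and 4094 in KO, while WT lay at 3865 to 4131. Scrt2, a repressor of the Snail family made in newborn neurons, differed by -0.33 ± 0.08, from 4940 to 5647 in Het and 3939 to 4419 in KO. Syne2, a nesprin that couples the nucleus to the cytoskeleton during neuronal migration, differed by -0.27 ± 0.06. The others were Gse1, a component of BHC-type corepressor complexes (-0.29), Rnf123, a ubiquitin ligase (-0.26), and Rlbp1, a retinaldehyde-binding protein (-0.24). Lenep, a lens epithelial gene that lies within Flad1 on the same strand, was listed at 106, 95.7 and 95.9 in Het and at 0 in every KO library. It was also at 0 in WT replicates 2 and 3 and at 110 in WT replicate 1, so the values did not follow genotype, and no fold is given. Each of the 12 had separate groups, which picking by p favours (4.68% of all genes lay wholly below), and an adjusted p of 0.942 in limma.

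Turning to families, the partners of Cyfip2 in the WAVE complex were near equal. Cyfip1, its paralog, was at 3703, 3924 and 3999 in Het and 3824, 4090 and 3768 in KO. The groups overlapped, with a log2 difference of 0.01 ± 0.05 (SE) and a 95% interval of -0.12 to 0.13. Of 11 complex members tested, 7 were higher in KO and 4 lower, with a median of 0.04, against 0.00 over all genes. Only Cyfip2 was under an unadjusted p of 0.05. Nckap1, the scaffold that joins CYFIP to the rest, was at 10974, 13550 and 13234 in Het and 11165, 11716 and 12318 in KO, a difference of -0.10 ± 0.08. Wasf1, the neuronal WAVE protein, differed by -0.03 ± 0.10, with an interval of -0.26 to 0.19. The 4 tested adaptors, Abi1, Abi2, Abi3 and Brk1, were all higher in KO, by 0.06 to 0.34, with overlapping groups. The largest, Abi3, was at 53.2, 33.1 and 15.9 in Het, and its difference turned to -0.11 without Het replicate 3.

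The machinery downstream showed no common direction. Among 27 Rac and Arp2/3 genes, 12 were higher and 15 lower (median -0.02), and the 9 Arp2/3 subunits split 4 and 5. Tiam1, a Rac exchange factor of synapses, had the smallest p of these: it was at 2370, 2248 and 2180 in Het and 2542, 2831 and 2571 in KO, a log2 difference of 0.22 ± 0.08 (SE). Among 30 regulators of actin filaments, 15 were higher and 15 lower. Actg1, cytoplasmic gamma-actin, was at 124449, 129369 and 136727 in Het and 115920, 120956 and 122439 in KO. The groups did not overlap, but the difference of -0.12 ± 0.07 had an unadjusted p of 0.14 in limma. Among 15 FMRP and translation genes, 4 were higher and 11 lower, with a median of -0.07. Eif4ebp2, the brain form of the eIF4E-binding repressors, was at 3590, 3347 and 3413 in Het and 3142, 3067 and 3192 in KO, a difference of -0.14 ± 0.05.

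Receptors of synaptic transmission were more often higher in KO. Of 31 glutamate and GABA-A receptor genes, 26 were higher and 5 lower, with a median log2 difference of 0.20, and all 11 GABA-A subunits were higher. Het replicate 1 bore on this: the median was 0.01 without it and 0.31 without Het replicate 3. Grin3a, an NMDA receptor subunit of immature synapses, was at 706, 802 and 1332 in Het and 1326, 1834 and 1423 in KO. Het replicate 3 lay within the KO range, and the difference was 0.73 ± 0.26 (SE). Gria2 and Grin2b, the most abundant of the list, differed by -0.12 ± 0.10 and 0.09 ± 0.19. Of 45 genes of vesicles, synaptic adhesion and scaffolds, 31 were higher (median 0.05, and -0.02 without Het replicate 1). Dlgap2, a postsynaptic density scaffold, was at 415, 540 and 490 in Het and 566, 590 and 563 in KO, and Shank3, another, was at 2636 to 2771 in Het and 2813 to 3298 in KO. Voltage-gated channels split 21 and 17 (median 0.01, and -0.05 without Het replicate 1). All 7 sodium channel genes were higher, with a median of 0.07 that was 0.02 without Het replicate 1. Cacna1h, a T-type calcium channel, differed by -0.22 ± 0.08 and Kcnd2, an A-type potassium channel, by 0.29 ± 0.12, with overlapping groups for both.

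Genes of axon guidance, migration and cortical layers were even or somewhat lower. Among 49 guidance genes, 20 were higher and 29 lower (median -0.09, and 0.01 without KO replicate 3). Sema3f, a repellent for axons and interneurons, was at 3502, 3611 and 3819 in Het and 2653, 3228 and 3453 in KO, and the groups were separate. Efnb3, a midline ephrin, differed by 0.25 ± 0.10 (SE). The 24 migration and microtubule genes split 12 and 12. Of 13 upper layer markers, 12 were lower in KO, with a median log2 difference of -0.18. Cux2, the marker of layers II to IV, was at 8122, 8357 and 7687 in Het and 5907, 6441 and 7720 in KO, so that KO replicate 3 lay within the Het range. KO replicates 1 and 2, the lower libraries for Cux2, are those with olfactory bulb RNA. The upper layer median was -0.15 with olfactory bulb RNA as a covariate and -0.23 in the 4 libraries that hold it, but turned to 0.04 in the 5 without it, where the Cux2 difference was -0.05. Of 14 deep layer markers, 10 were lower (median -0.09), among them Tbr1 of layer VI at 10240 to 11543 in Het and 9632 to 9948 in KO. Sox5, a deep layer identity factor, was at 8701, 8941 and 8253 in Het and 6667, 7079 and 7890 in KO, a difference of -0.26 ± 0.10.

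**Figure D3:**
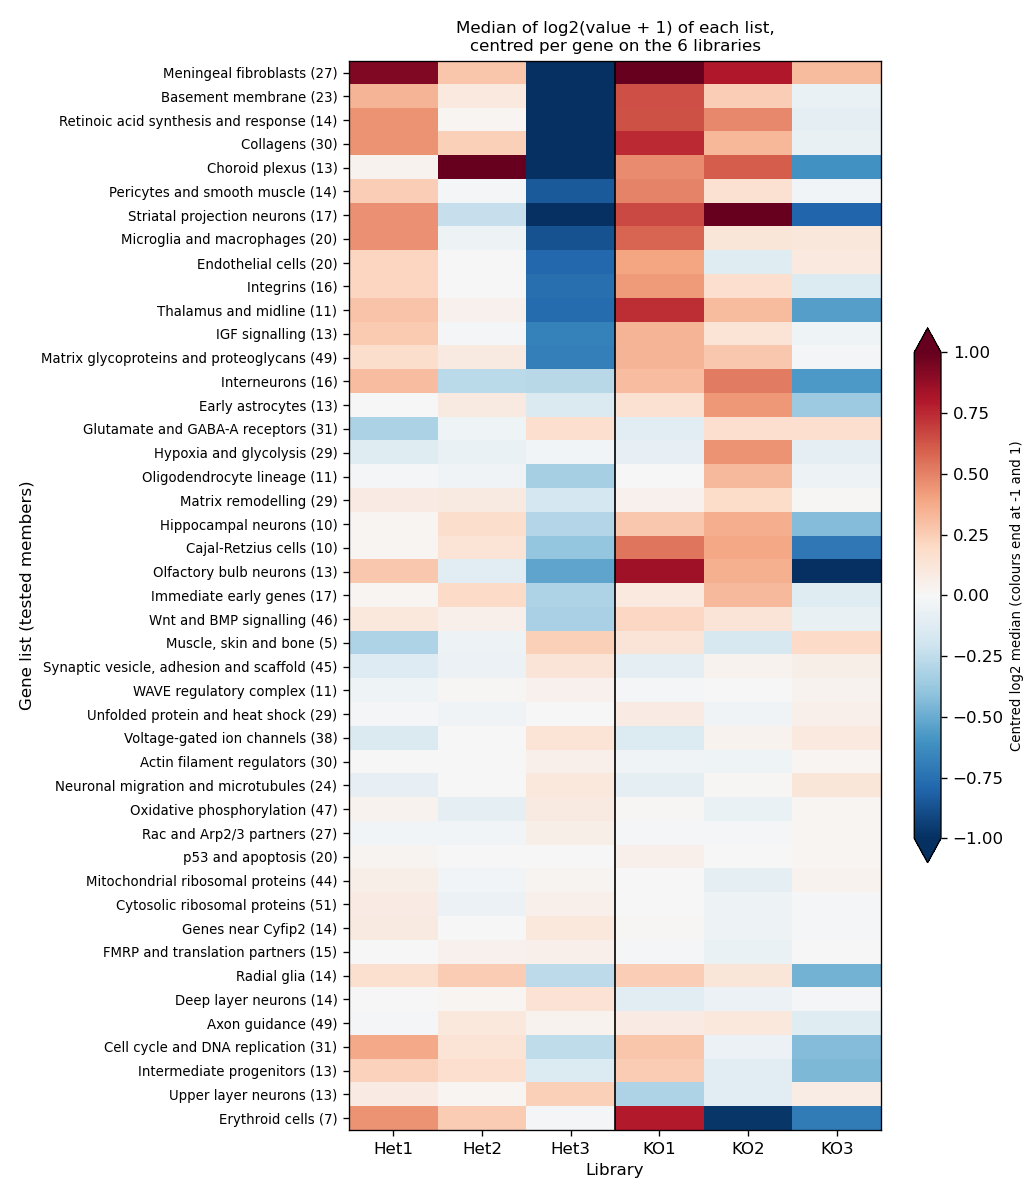
Heat map of the median level of each gene list in each library, as log2(value + 1) centred per gene on the 6 libraries; colours end at -1 and 1, and digits in brackets are tested members. The Het replicate 3 column is lowest for meningeal fibroblasts (-3.38), while KO replicate 2 is highest for hypoxia and glycolysis (0.45).

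Proliferation genes were more often lower in KO, and their level also varied widely within each genotype. Of 31 cell cycle and replication genes, 28 were lower, with a median log2 difference of -0.15. Mki67, a marker of cycling cells, was at 6542, 5774 and 3926 in Het and 6009, 5042 and 3503 in KO. Set side by side by replicate number, Mki67 was lower in KO each time, as was the centred level of the list (0.38 and 0.27, 0.14 and -0.06, -0.26 and -0.44 in Het and KO). The numbers do not pair all libraries, since KO replicate 2 holds olfactory bulb RNA and Het replicate 2 does not. The replicates numbered 3 were the lowest of both genotypes. Leaving out 1 library moved the list's median, to -0.34 without Het replicate 3, 0.07 without KO replicate 3 and -0.01 without Het replicate 1. Pcna, the replication clamp, was the steadier: 3730, 3607 and 3578 in Het and 3527, 3063 and 2828 in KO, a difference of -0.22 ± 0.09 (SE) with separate groups. Of 13 intermediate progenitor markers, 12 were lower (median -0.17, from -0.38 without Het replicate 3 to -0.03 without KO replicate 3). Of 14 radial glia markers, 9 were lower (median -0.07, and 0.12 without KO replicate 3). Pax6, which specifies dorsal progenitors, was at 2057, 1998 and 1625 in Het and 1929, 1371 and 1034 in KO.

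Meningeal and matrix genes were mostly higher in KO, and the size of their differences, and in some lists the direction, rested on Het replicate 3. All 27 meningeal fibroblast markers were higher in KO, with a median log2 difference of 1.52, which was 0.16 without Het replicate 3. Their summed level was 54775, 33822 and 3921 in Het and 62853, 43718 and 34903 in KO, and Slc22a2 was at 0 in Het replicate 3. Col3a1 was at 8886, 5340 and 136 in Het and 10595, 4975 and 5417 in KO, and its difference of 1.82 ± 1.31 (SE) became -0.06 without that library. Collagens (26 of 30 higher) had a median of 0.45, and -0.04 without Het replicate 3, when 20 of the 30 were lower. Basement membrane genes (21 of 23 higher) had 0.59 and 0.06, integrins (15 of 16) 0.34 and 0.09, and matrix glycoproteins and proteoglycans (36 of 49) 0.23 and 0.06. Matrix remodelling genes (20 of 29 higher) had 0.12 and -0.04, retinoic acid genes (14 of 14) 0.46 and 0.00, and IGF genes (8 of 13) 0.27 and 0.06. Without Het replicate 3, 15 of the 29 remodelling genes and 7 of the 14 retinoic acid genes were lower. Still higher then were 20 of 27 meningeal, 17 of 23 basement membrane, 12 of 16 integrin, 29 of 49 glycoprotein and proteoglycan and 8 of 13 IGF genes. Igf2, a growth factor of the meninges and choroid plexus, was at 16066, 8814 and 1458 in Het and 17425, 12264 and 9481 in KO. Wnt and BMP genes split 27 and 19 (median 0.07, and -0.01 both without Het replicate 3 and after quantile normalization).

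A few matrix and signalling genes, each with the smallest p of its list, kept a difference without that library. Timp3, a matrix-bound metalloproteinase inhibitor, was at 1355, 1194 and 1407 in Het and 1575, 1862 and 2493 in KO, a log2 difference of 0.56 ± 0.21 (SE), and 0.61 without Het replicate 3. Wnt5a, a non-canonical Wnt ligand, was at 503, 652 and 496 in Het and 868, 694 and 683 in KO, a difference of 0.44 ± 0.14, and 0.38 without it. Lamc1, the laminin gamma-1 chain, was at 4340, 3724 and 2414 in Het and 6151, 5540 and 3946 in KO, with overlapping groups and a difference of 0.59 that was 0.35 without it. All 3 were under an unadjusted p of 0.05 in limma, and none under the adjusted threshold. Each was the only such gene of its list, of 29 matrix remodelling, 46 Wnt and BMP and 23 basement membrane genes. Over all genes 3.59% were under that unadjusted p, so these 3 are no more than such lists would hold by that share.

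**Figure D4:**
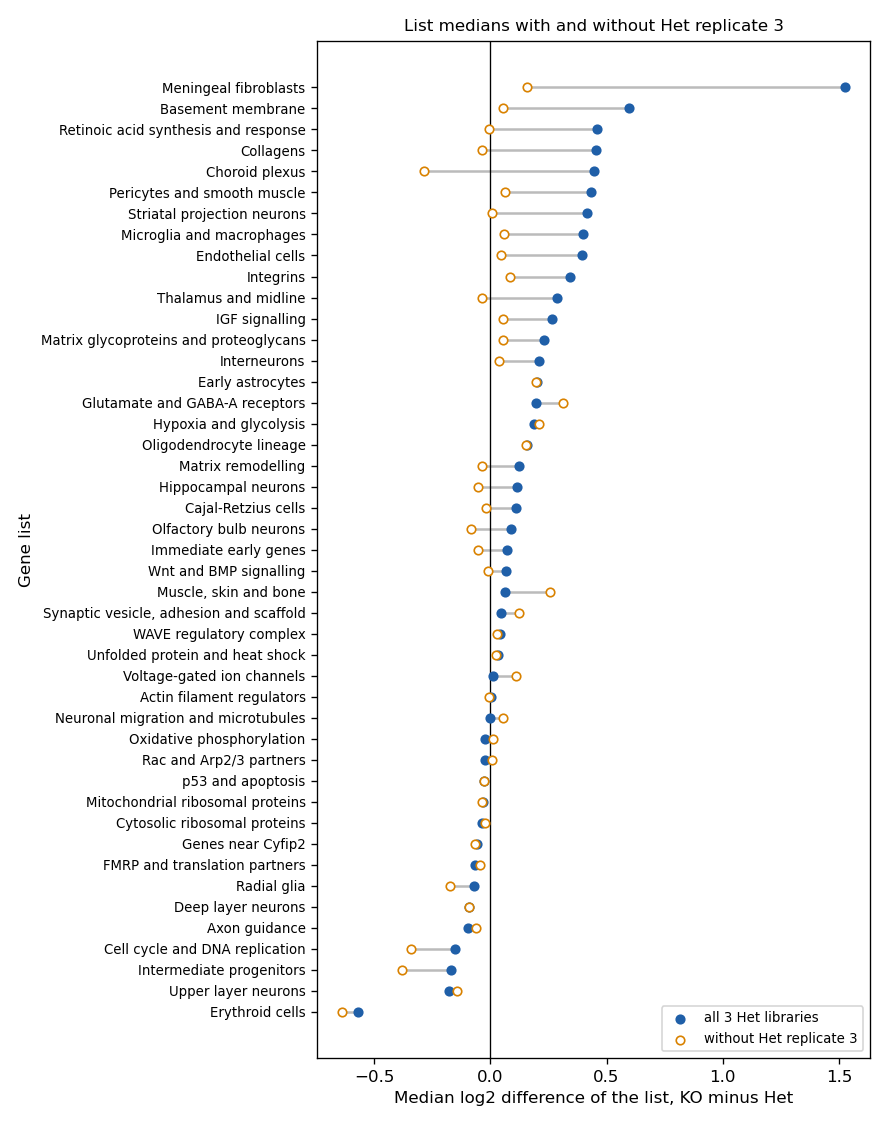
Median log2 difference of each gene list with all libraries and without Het replicate 3 (horizontal axis); each row is 1 list. The meningeal list moves from 1.52 to 0.16, while the cell cycle list moves from -0.15 to -0.34.

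Vessel and immune markers followed the meninges. Of 20 endothelial markers, 18 were higher in KO (median log2 difference 0.39, and 0.05 without Het replicate 3), as were all 14 pericyte and smooth muscle markers (0.43 and 0.06) and 19 of 20 microglia and macrophage markers (0.40 and 0.06). Eng, an endothelial TGF-beta coreceptor, was at 1429, 1327 and 880 in Het and 1831, 1714 and 1386 in KO, and Mrc1, of border macrophages, was at 1401, 706 and 82.8 in Het and 754 to 1652 in KO. Erythroid markers went the other way, with 5 of 7 lower and a median of -0.57. Hbb-bs, an adult beta-globin, was at 26517, 20305 and 19603 in Het and 30474, 8460 and 10797 in KO. KO replicate 1 was the highest of the 6 and the other 2 KO libraries the lowest, and the list's median was -0.23 without KO replicate 2 and -1.13 without KO replicate 1. The alpha-globin genes Hba-a1 and Hba-a2 are almost identical copies, and reads may be shared between them.

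Macroglial lists had higher medians in KO, with KO replicate 2 the highest library. For early astrocytes KO replicate 3 was the lowest of the 6 libraries (centred level -0.37). In the 5 libraries without olfactory bulb RNA the median was -0.27 for early astrocytes and 0.14 for the oligodendrocyte lineage. Of 13 early astrocyte markers, 10 were higher (median log2 difference 0.20, and -0.09 without KO replicate 2). Sparcl1, a secreted astrocyte protein, was at 7462, 7954 and 8286 in Het and 9379, 8856 and 8950 in KO, with separate groups. Of 11 oligodendrocyte lineage markers, 8 were higher (median 0.16, -0.05 after quantile normalization and 0.00 without KO replicate 2).

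Markers of neighbouring regions and of migrating neurons varied more between libraries than between genotypes. Of 17 striatal markers, 11 were higher in KO, with a median log2 difference of 0.42, and 0.01 without Het replicate 3 and 1.16 without KO replicate 3. Interneuron markers (14 of 16 higher) had a median of 0.21, and 0.04 without Het replicate 3 and -0.05 without KO replicate 2. Maf, a regulator of medial ganglionic eminence interneurons, was at 1472, 1519 and 1441 in Het and 1713, 1842 and 1689 in KO, a difference of 0.24 ± 0.08 (SE) with separate groups. Sst, the somatostatin gene, was at 434, 544 and 567 in Het and 1180, 1377 and 445 in KO, where the 2 high libraries were those with olfactory bulb RNA. Within the libraries without it (WT replicates 1 and 2, Het replicates 2 and 3 and KO replicate 3) the Sst difference was -0.32. The lists of olfactory bulb (10 of 13 higher), Cajal-Retzius (9 of 10), hippocampal (7 of 10) and thalamic or midline genes (8 of 11) had medians of 0.09, 0.11, 0.12 and 0.29, which were -0.08, -0.02, -0.05 and -0.04 without Het replicate 3. Choroid plexus markers (8 of 13 higher) had a median of 0.45, -0.28 without Het replicate 3 and -0.02 after quantile normalization. Ttr, their main product, was at 11029 in Het replicate 2 and at 20.7 to 624 in the other 5 libraries, and Folr1 and Calml4 were each at 0 in at least 1 Het library. The 5 tested genes of muscle, skin and bone were near the low end of detection, with a summed level of 209 to 288 in all 6.

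Metabolic and stress genes were close to even, apart from hypoxia genes in 1 library. Of 29 hypoxia and glycolysis genes, 25 were higher in KO (median log2 difference 0.19), and the median was 0.00 without KO replicate 2. Eno1, a glycolytic enolase, was at 10144, 11815 and 11413 in Het and 10518, 17425 and 10469 in KO, where KO replicate 2 alone was high. Of 47 oxidative phosphorylation genes, 32 were lower, with a median of -0.02. Ndufa10, a subunit of complex I, was at 2976, 2651 and 3136 in Het and 2214, 2484 and 2479 in KO, a difference of -0.29 ± 0.08 (SE) with separate groups. Cytosolic ribosomal protein genes (38 of 51 lower) had a median of -0.04, and 0.00 after quantile normalization, and mitochondrial ones (29 of 44 lower) -0.03. The lists of p53 and apoptosis (11 of 20 lower, median -0.03), unfolded protein and heat shock (17 of 29 higher, 0.03) and immediate early genes (13 of 17 higher, 0.07) were near the median of all genes. For the last, KO replicate 2 and Het replicate 2 were the highest libraries, and the median was -0.05 without Het replicate 3 and -0.04 without KO replicate 2.

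To set like libraries side by side, KO replicates 1 and 2 were compared with Het replicate 1, which all hold olfactory bulb RNA, and KO replicate 3 with Het replicates 2 and 3 in turn. These are differences of single libraries or of a pair and carry no test. Of the 45 lists, 11 had a median of the same sign in all 3 differences. Some lists would do so with signs at random, and the count was not tested against that. The lists named next are therefore examples and not evidence of a genotype effect. For cell cycle genes the 3 values were -0.24, -0.58 and -0.16 and for intermediate progenitors -0.17, -0.60 and -0.22. Erythroid markers were lower in KO in all 3 differences. Deep layer markers gave -0.07, -0.11 and -0.05 and the unfolded protein and heat shock list 0.04, 0.05 and 0.02. For the latter list the centred level of KO replicate 2 (-0.04) was below that of Het replicate 1 (-0.02). The receptors of synaptic transmission gave 0.40, 0.26 and -0.05, and meningeal markers 0.02, 0.02 and 3.77, the last being the difference from Het replicate 3. The first and the other differences share no library, whereas the last pair share KO replicate 3.

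**Figure D5:**
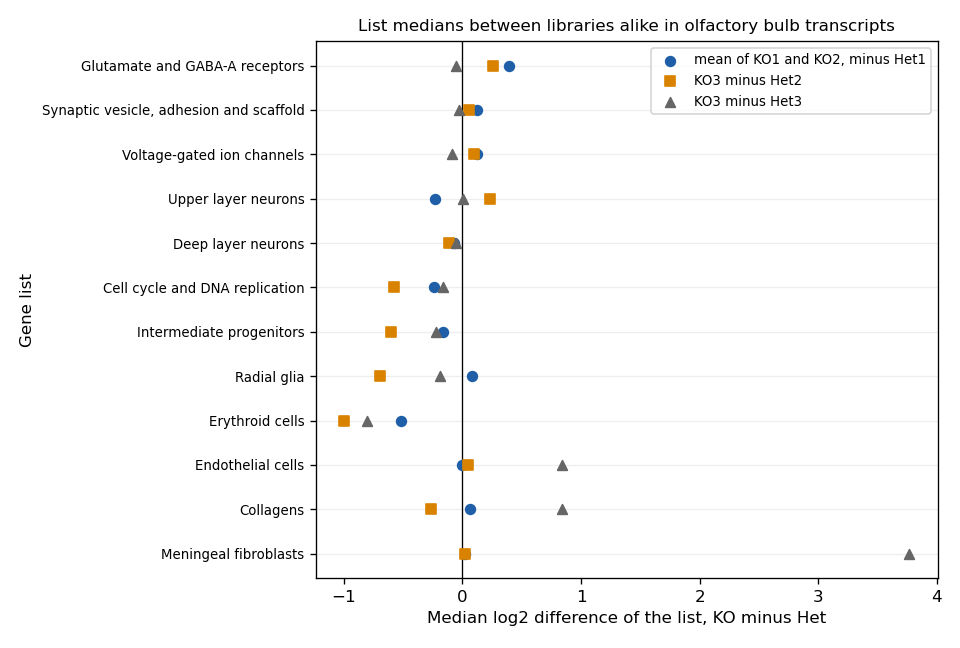
Median log2 difference of 12 gene lists (horizontal axis) for KO replicates 1 and 2 minus Het replicate 1, KO replicate 3 minus Het replicate 2, and KO replicate 3 minus Het replicate 3. Cell cycle genes are below 0 in all 3, and meningeal markers are at 0.02, 0.02 and, against Het replicate 3, 3.77.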

How the data were processed

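Polyadenylated RNA of 9 cortex libraries (3 each of WT, Het and KO) was sequenced after a stranded preparation, per the labels' protocols. The deposited table holds, for 18820 genes, a signal: the authors scaled each library's gene counts by its size factor, per the file headers. The submitters' processing notes name Salmon 0.11.2, R 3.6.0, DESeq2 1.19.11 and GRCm38, with no role. Totals per library were 36.0 M to 38.6 M, and gene symbols matched for 18783 genes. Whole reads could not be recovered (60.9% to 78.3% of values under 6 lay within 0.1 of a whole step), so the test for scaled values was used in place of a count test. limma 3.58.1 in R 4.3.3 fitted log2(value + 1) of 15069 genes whose mean was 10 or more, with 1 mean per genotype over all 9 libraries and a trend, and p-values were two-sided and adjusted after Benjamini and Hochberg at 0.05. The log2(value + 1) scale understates differences of low genes. The fit was tested on simulated data whose spread was capped below the median spread of the real libraries. That checks the code and cannot speak to the power to call differences here.

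Named genes were Cyfip2, Fndc9 and Cyfip1, WAVE members, the 12 properly named genes of smallest p in each direction, library checks, and for each list of 5 or more tested genes the 2 most abundant and the 2 of smallest p. Emx1, Slc22a2, Folr1 and Calml4 were added after their values were seen. Members and the 45 gene lists were chosen with earlier results of these data known. Replicate numbers come from the labels. Deviations from group means correlated at 0.45, 0.10 and 0.47 between same-numbered Het and KO libraries, and a block by number was run as an alternative. For number 2 the correlation was below that of Het replicate 2 with KO replicate 1 (0.15), so the numbers do not pair all libraries. Number 1 libraries share and number 3 libraries lack olfactory bulb RNA. 22 alternatives were run, 4 of them chosen after seeing the data. No 2 libraries held identical values. Promoter windows are from RefSeq.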

Additional observations from a re-analysis of the deposited data

How the results depend on the processing

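Over 22 alternatives the Cyfip2 difference kept its direction, from -0.32 to -0.22, and never passed the adjusted threshold in limma. Genes at an adjusted p under 0.05 numbered 0 except for 1 (Lenep) in the 6 Het and KO libraries alone, 1 without Het replicate 1, and 30 in the 4 libraries with olfactory bulb RNA, of which only 1 is Het. Leaving out a replicate gave 0 to 1 such genes, 112 to 765 higher and 164 to 728 lower at an unadjusted p under 0.05. Higher genes numbered 135 in the 6 libraries alone, 141 in the 5 libraries without olfactory bulb RNA and 630 in the 4 with it. Array weights in limma gave 1299 higher and 1470 lower. With the replicate number as a block, 465 were higher and 519 lower, or 713 and 585 in the 6 libraries alone, and the block changed no other call. The causes were not tested. Some alternatives cannot move the log2 difference of a gene: the 6 libraries alone, the 2 replicate blocks and the filters on low values. Cyfip2 was at -0.27 in each of them, and they are counted among the 4191 values below.

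Of 4191 values for 191 named genes, 21 reversed, and 3 passed the adjusted threshold (Lenep in 2 alternatives, Sst in the 4 libraries with olfactory bulb RNA). In the 5 libraries without olfactory bulb RNA the values were -0.072 for Cyfip1, 0.043 for Dab1, -0.23 for Egr3, 0.0065 for Mrpl37, -0.32 for Sst, -0.40 for Lhx5, -0.16 for Ebf2 and -0.043 for Lef1. In the 4 with it they were -0.011 for Brk1, -0.18 for Ms4a7 and -0.44 for Sp7. Leaving out a replicate gave -0.029 (without KO replicate 2) to 0.030 for Cyfip1, -0.022 (without KO replicate 1) to 0.55 for Lhx5 and, both lowest without Het replicate 3, -0.017 to 1.33 for Enpp2 and -0.036 to 1.85 for Aqp1. Without Het replicate 3 and with the olfactory bulb covariate, Enpp2 was at -0.12, Aqp1 at -0.097, Ebf2 at -0.13 and Sp7 at -0.091. Ebf2 was at -0.060 with a sex covariate. Reversals were counted only for Fndc9, Cyfip1 and genes picked by smallest p. The turn of Abi3 to -0.11 without Het replicate 3 is therefore not among the 21. Of 990 list medians, 41 moved by more than the spread between libraries. That spread includes Het replicate 3, so the count understates how far the lists depend on that library. The meningeal move from 1.52 to 0.16 is not counted, because the spread of that list was 1.67. Without Het replicate 3, 14 of the 45 lists changed sign.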
